A study of Mus musculus with 2 samples.

Results

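The genes examined were 42 mouse genes of the podocyte cytoskeleton and of inherited or autoimmune nephrotic disease, among 21887 protein-coding symbols on chromosomes. They were given as a list of names, and an accessible region (peak) was assigned to a gene when its summit lay inside the gene, or when an end of that gene was the nearest protein-coding gene end within 100 kb. By this rule 483 of 77529 control peaks and 341 of 61210 Brg1 cKO peaks belonged to the 42 genes. Each of the 42 had at least 1 control peak, as did 16707 of all 21887 protein-coding genes. For the comparison between podocyte genes and others, 13 were classed as podocyte-enriched within the kidney, 26 as broadly expressed, and 3 (Avil, Kank4 and Pla2r1) as neither, from general knowledge of where they are expressed. The classes were written with earlier results of these data already known.

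The data were 2 ATAC-seq peak lists, from an assay in which a transposase cuts open chromatin. Both came from kidneys at E18.5, close to birth, and from tdTomato cells purified by flow sorting, with 50000 cells per reaction. One library was labelled WT control and the other Brg1cKO/cKO, that is, deficient in Brg1, which Smarca4 encodes and which drives nucleosome remodelling by BAF complexes. The cKO cells were labelled as Wnt4 lineage and the control cell type only as control; the series' design text places both in the Wnt4 lineage. The driver of the deletion and of the reporter, the number of kidneys or animals behind a library, and whether they were pooled were not given in the sources used here. Each genotype had 1 library, so replicate spread is unknown, no test between genotypes was made, and the intervals below cover counting error only. The labels enter both samples as total RNA, while the protocol and file format are those of ATAC-seq. Smarca4 had 3 control peaks and 2 cKO peaks, and an open site does not check a deletion.

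Podocytes are the cells that wrap the glomerular capillaries and hold the blood filter with interlocking foot processes. A contractile actin cytoskeleton, anchored to the slit diaphragm and the basement membrane and tuned by small GTPases, keeps these processes in shape, and mutations in many of its parts cause proteinuria and nephrotic syndrome. Other genes of the same disease act in every cell, in the nuclear pore, in coenzyme Q synthesis or in tRNA modification. Wnt4 marks the mesenchymal cells that form nephron epithelium, and podocytes descend from them. As a check of the label, the podocyte markers Nphs1, Podxl, Wt1, Synpo, Lmx1b and Tcf21 each had a peak within 1000 bp of a gene end in both libraries. So did 5 of 6 markers of nephron epithelium, all 5 of interstitium and all 5 of endothelium. For erythroid cells 1 of 4 did and for immune cells none of 5. Of all protein-coding genes 65.9% had such a peak in both libraries. Since markers of interstitium and endothelium were called in full too, these counts do not separate the Wnt4 lineage from other cells. A peak is no measure of expression or of cell share, and in a bulk library fewer podocytes among the sorted cells and less open chromatin per podocyte cannot be told apart. The part that cell composition has in the results below was not tested.

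The first question was how much of the open chromatin of these genes in control cells was also called without Brg1. A peak was counted as found when it overlapped a peak of the other library by at least 1 bp. In all, 25.9% of control peaks and 5.92% of cKO peaks had no counterpart. Of the control peaks of the 42 genes, 319 of 483 were found (66.0%, exact Clopper-Pearson 95% interval 61.6 to 70.3%), and 164 were not. Among all control peaks of equal strength (the same of 10 equal classes by p) and position (within 1000 bp of a gene end or not), 72.2% would be found, a difference of -6.20 percentage points (interval -10.6 to -1.98). Of the cKO peaks, 326 of 341 were found in the control (95.6%, 92.8 to 97.5%), where 92.9% was expected. The peaks of these genes that differed were therefore mostly present in the control list alone.

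By position, the intervals of the difference from the expected share overlapped between peaks near and far from gene ends. They also overlapped between peaks inside and outside the gene, and these positions were not tested against each other. Control peaks within 1000 bp of any gene end were found in 46 of 51 cases (90.2%), a difference of -1.93 points from the expected share (-13.5 to 4.61). More distal ones were found in 273 of 432 (63.2%), a difference of -6.70 (-11.4 to -2.14). The shares themselves thus differed by distance, as they did for all control peaks (90.7% near ends and 69.1% distal). With the summit inside the gene 245 of 385 were found (63.6%, -7.51 points, -12.5 to -2.69), and outside it 74 of 98 (75.5%, -1.05 points, -10.8 to 7.07). All control peaks inside protein-coding genes were found in 72.7% of cases, a difference of -1.74 points.

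**Figure D1:**
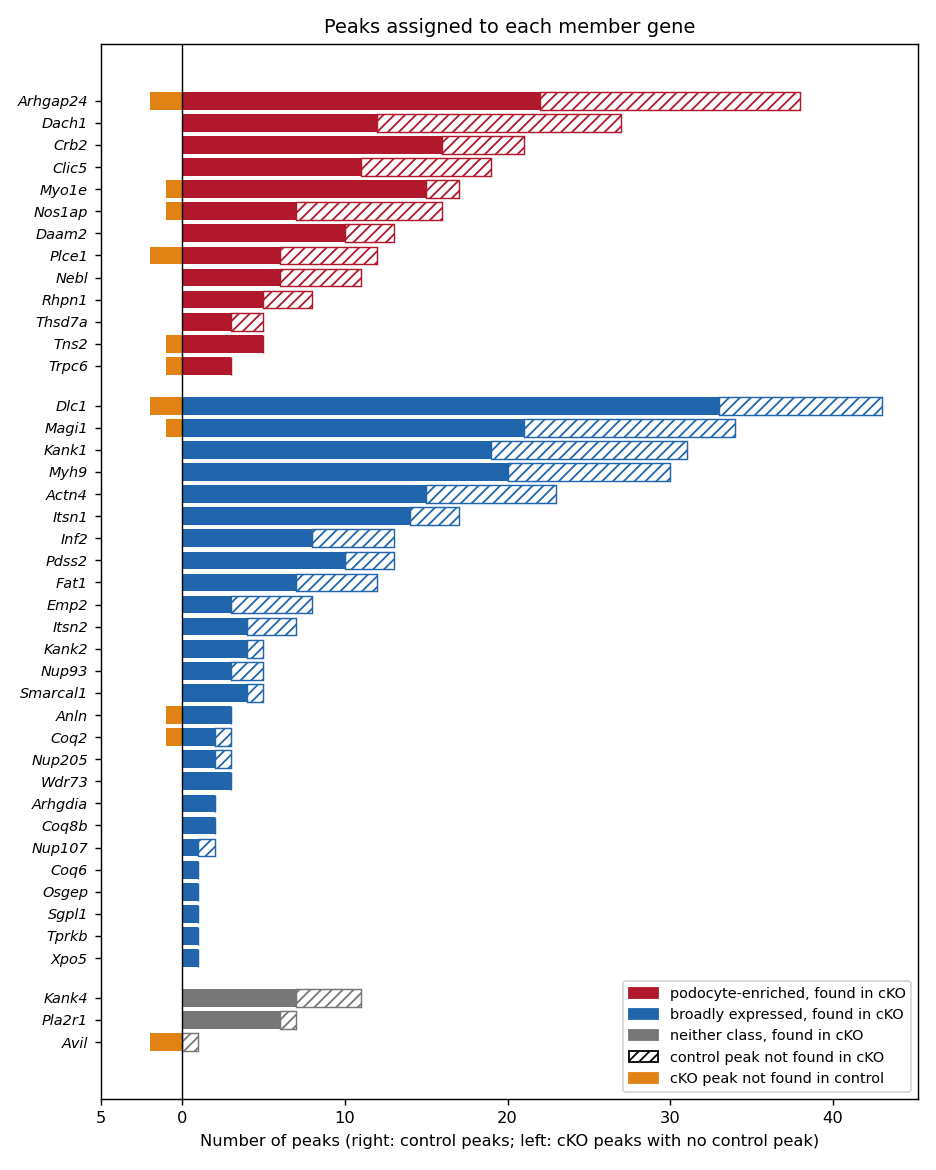
Number of peaks assigned to each of the 42 genes. Bars to the right are control peaks, solid where found in the cKO library and hatched where not, and bars to the left are cKO peaks without a control peak. Arhgap24 and Dach1 have the longest hatched bars, with 16 and 15 peaks, while cKO-only peaks number at most 2 per gene.

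Podocyte-enriched genes lay further under the expected share than broadly expressed ones, but the gap between the classes was within counting error. Of the control peaks of the 13 podocyte-enriched genes, 121 of 195 were found (62.1%, 54.8 to 68.9%), where 72.0% was expected, a difference of -9.93 points (interval -17.1 to -3.09). Of those of the 26 broadly expressed genes 185 of 269 were found (68.8%, 62.9 to 74.3%), where 72.6% was expected, a difference of -3.79 points with an interval from -9.70 to 1.70. The podocyte-enriched minus the broadly expressed difference was -6.14 points, with an interval from -15.2 to 2.90. When only as many of the most significant control peaks were used as the cKO list holds, it was -10.5 points (-19.9 to -1.22), with -11.4 for podocyte-enriched and -0.89 for broadly expressed genes, and 0 lay outside the interval. That setting gave the most negative value of the alternatives described in the last section. With overlap of at least 50% of both peaks the difference was -4.17 points (-13.5 to 5.17), and 0 lay inside the interval. All these intervals count peaks of the same gene as independent. The 3 genes in neither class had 13 of 19 control peaks found.

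For summits inside the gene the gap between the classes was -7.77 points, and its interval of -18.1 to 2.57 also included 0. Podocyte-enriched genes had 89 of 149 such control peaks found (59.7%, where 71.7% was expected), and broadly expressed genes 148 of 222, where 70.9% was expected. Conversely, 125 of 133 cKO peaks of podocyte-enriched genes (94.0%, expected 93.2%) and 188 of 193 of broadly expressed genes (97.4%, expected 92.8%) were found in the control. The differences were 0.77 points (-4.72 to 4.16) for podocyte-enriched and 4.59 points (1.24 to 6.33) for broadly expressed genes. Within 1000 bp of any gene's end 12 of 15 cKO peaks of podocyte-enriched genes were found, -17.2 points from the expected share (-45.3 to -1.58). For broadly expressed genes 32 of 33 were found, 0.35 points from it (-12.4 to 3.30). Of the 3 podocyte-enriched peaks not found there, 1 lay within 1000 bp of its own gene's end.

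Stronger peaks were found more often. In 5 equal classes of the control list, from the weakest to the strongest, the peaks of the 42 genes were found in 28.8%, 44.3%, 74.5%, 92.3% and 100% of cases, against 38.5%, 56.4%, 81.1%, 94.8% and 99.9% of all control peaks. All 68 of their peaks in the strongest class were found. Podocyte-enriched genes had 29.3%, 34.1%, 70.5%, 89.4% and 100% found, and broadly expressed genes 25.9%, 51.9%, 79.0%, 94.4% and 100%. The classes were furthest apart in strength class 2, with 14 of 41 against 27 of 52 peaks, where the intervals overlapped.

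**Figure D2:**
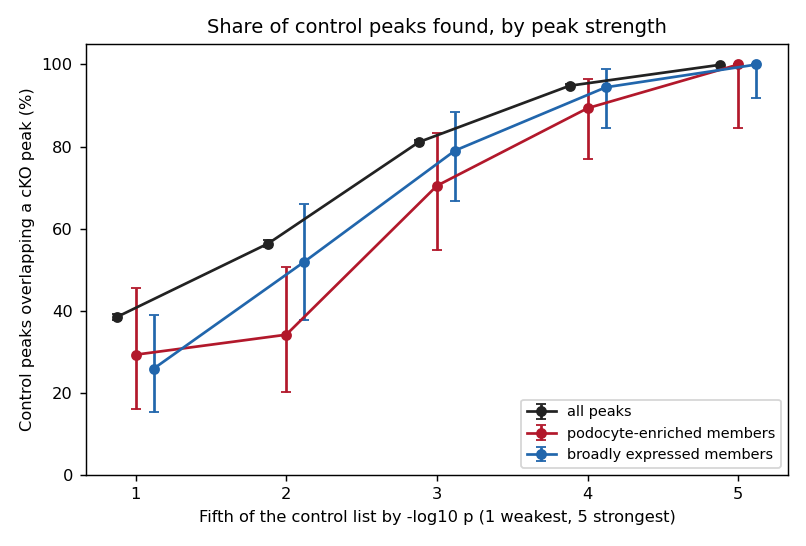
Share of control peaks that overlap a cKO peak, by class of -log10 p from weakest (1) to strongest (5), for all control peaks and for podocyte-enriched and broadly expressed genes. Points are shares and bars exact 95% intervals for counting error; the podocyte-enriched points lie under all peaks in classes 1 to 4 and meet them at the strongest.

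Taking only the more significant 50% of each list, the control peaks of the 42 genes stood -13.8 points from the expected share, those of podocyte-enriched genes -18.6 and those of broadly expressed genes -10.7 points from it. With that restriction 127 of 228 control peaks of the 42 genes had a counterpart among the stronger cKO peaks.

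Nearly all of these genes had an open start in both libraries. Within 1000 bp of either gene end 36 of 42 (85.7%) had a peak in both libraries, against 65.9% of all protein-coding genes. None had one in the control alone and 1, Fat1, in the cKO library alone. Of all protein-coding genes 1.68% had one in the control alone and 0.292% in the cKO library alone. The Fat1 entry is a matter of the limit: a control peak of 4508 bp and a cKO peak of 5074 bp covered the same place 5.11 kb from the gene's end at their summits, and only the wider one reached within 1000 bp. Avil, Clic5, Nebl, Pdss2 and Tprkb had none in either library. RefSeq start windows, 250 bases before to 50 after an annotated start, were at hand for 38 of the 42 genes, not for Arhgap24, Coq8b, Dlc1 and Rhpn1. A peak lay over such a window in both libraries for 35 of the 38 (92.1%, against 64.6% of 17492 protein-coding genes), including Clic5, Nebl, Pdss2 and Tprkb. Fat1, whose only listed start lies inside the gene, had one in the control alone (1.23% of all genes). No gene had one in the cKO library alone (0.229% of all genes), and Avil and Plce1 had none. Plce1, a phospholipase C needed for podocyte maturation, was open in both libraries at its annotated gene end instead (control peak chr19:38479639-38481863).

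The start peaks of several podocyte-enriched genes were called over a shorter stretch in the cKO library. This measure was chosen after the widths had been seen. Among genes with a start peak in both libraries, the widest cKO peak over a start window spanned less than 80% of the widest control peak in 5 of 10 podocyte-enriched genes, in 0 of 23 broadly expressed ones and in 7.13% of 11293 protein-coding genes. The 5 were Crb2 (3353 bp in the control and 1738 bp in the cKO library), Clic5 (2192 and 1325 bp), Thsd7a (3323 and 2087 bp), Nos1ap (2202 and 1454 bp) and Myo1e (2446 and 1814 bp). Tns2 (5704 and 5750 bp), Daam2 (1666 and 1643 bp), Trpc6 (1429 and 1399 bp), Nebl (2300 and 2218 bp) and Dach1 (4210 and 4012 bp) had start peaks of nearly the same width.

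Crb2, a Crumbs polarity protein of the podocyte, showed 2 cKO peaks where the control had 1: the control peak chr2:37774499-37777851 faced cKO peaks of 744 and 1738 bp, which covered 74.0% of it. Clic5, an intracellular chloride channel family member at the foot process, likewise had a second cKO peak of 435 bp, and 80.3% of its control start peak was covered. Measured by covered bases, the control start peaks of the 10 podocyte-enriched genes were covered to 84.4% on average, where 94.5% was the mean over start peaks of the same strength class. Those of the 23 broadly expressed genes were covered to 95.9%, with 94.9% expected. By this measure 4 of the 10 stayed under 80%, as did 0 of the 23 broadly expressed genes and 6.13% of 11293 protein-coding genes. As a percentage of the control width, the lowest broadly expressed gene was Anln, at 82.5% (2129 bp in the control and 1757 bp in the cKO library), and Wdr73 was wider in the cKO library, with 1629 and 2007 bp.

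**Figure D3:**
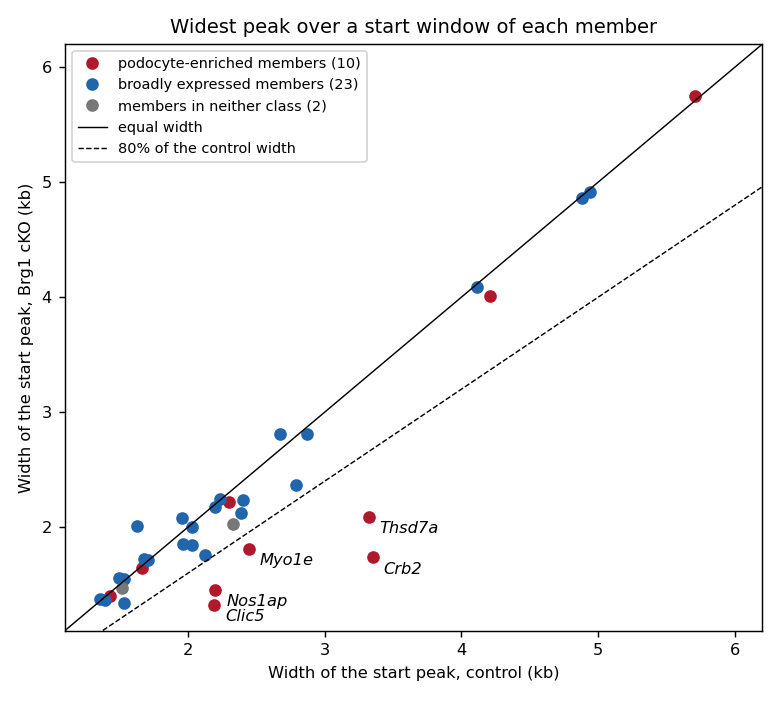
Width of the widest peak over a start window of each gene, control on the horizontal and Brg1 cKO on the vertical axis, both in kb. Each point is a gene with a start peak in both libraries; the lines mark equal width and 80% of the control width, and Crb2, Thsd7a, Nos1ap, Clic5 and Myo1e lie under the lower line.

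Which of a gene's annotated starts was open went with its sequence. The 49 start windows of the 38 genes fell into 40 with a peak in both libraries, 2 with a peak in the control alone and 7 with none. Their median ratio of observed to expected CpG dinucleotides was 0.76, 0.20 and 0.15, and over all protein-coding genes the medians were 0.76 for windows with a peak in both (13548 windows), 0.26 for the control alone (325) and 0.17 for no peak (7333). Broadly expressed genes had a median ratio of 0.81 over 30 windows and podocyte-enriched genes of 0.57 over 16, and all protein-coding genes had one of 0.57. The 250 bases before a start are shown for Nos1ap, Nebl and Nup93, whose starts differed, and for Fat1 and Tns2, with 1 listed start each. Tprkb, whose starts also differed, is not shown. The bases were taken from RefSeq on GRCm38.p6 and written 5′ to 3′ on the gene's strand, with each CpG in capitals. Nos1ap, the adaptor of neuronal nitric oxide synthase, and Nebl, the actin-binding protein nebulette, each had a CpG-rich start that was open in both libraries and a start or starts poor in CpG with no peak in either. Nup93, of the nuclear pore, had an upstream start open in both libraries and an internal start open in the control alone. Fat1, an atypical cadherin, had its only listed start, which lies inside the gene, open in the control alone. Tns2, a tensin that links actin to integrins, was open in both libraries with 2 CpG in these bases.
Nos1ap, open in both (chr1:170589850-170590099, minus strand): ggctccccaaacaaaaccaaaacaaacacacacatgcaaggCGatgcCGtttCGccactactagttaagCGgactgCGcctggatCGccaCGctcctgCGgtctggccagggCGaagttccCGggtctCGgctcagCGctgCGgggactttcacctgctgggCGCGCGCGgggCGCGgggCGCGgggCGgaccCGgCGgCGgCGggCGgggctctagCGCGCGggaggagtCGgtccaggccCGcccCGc
Nos1ap, no peak (chr1:170557111-170557360, minus strand): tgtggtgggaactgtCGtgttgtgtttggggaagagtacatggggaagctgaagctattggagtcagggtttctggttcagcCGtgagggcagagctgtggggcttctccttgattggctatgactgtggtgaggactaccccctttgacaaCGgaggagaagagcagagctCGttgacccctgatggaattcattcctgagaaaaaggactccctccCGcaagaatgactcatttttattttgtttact
Nebl, open in both (chr2:17731135-17731384, minus strand): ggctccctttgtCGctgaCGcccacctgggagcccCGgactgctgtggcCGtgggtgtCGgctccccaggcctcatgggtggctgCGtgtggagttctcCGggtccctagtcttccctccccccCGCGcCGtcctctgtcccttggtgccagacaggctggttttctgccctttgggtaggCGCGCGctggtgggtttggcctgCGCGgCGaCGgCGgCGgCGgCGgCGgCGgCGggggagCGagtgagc
Nebl, no peak (chr2:17526131-17526380, minus strand): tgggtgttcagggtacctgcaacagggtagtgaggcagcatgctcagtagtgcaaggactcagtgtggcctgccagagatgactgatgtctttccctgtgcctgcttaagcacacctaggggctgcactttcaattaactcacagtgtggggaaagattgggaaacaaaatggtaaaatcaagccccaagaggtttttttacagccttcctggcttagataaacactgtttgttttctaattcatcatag
Nup93, open in both (chr8:94214314-94214563, plus strand): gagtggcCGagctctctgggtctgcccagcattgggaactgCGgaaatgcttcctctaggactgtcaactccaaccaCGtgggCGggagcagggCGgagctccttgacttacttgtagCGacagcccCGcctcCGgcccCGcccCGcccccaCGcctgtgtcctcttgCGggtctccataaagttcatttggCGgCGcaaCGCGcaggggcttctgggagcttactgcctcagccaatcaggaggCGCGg
Nup93, control alone (chr8:94266597-94266846, plus strand): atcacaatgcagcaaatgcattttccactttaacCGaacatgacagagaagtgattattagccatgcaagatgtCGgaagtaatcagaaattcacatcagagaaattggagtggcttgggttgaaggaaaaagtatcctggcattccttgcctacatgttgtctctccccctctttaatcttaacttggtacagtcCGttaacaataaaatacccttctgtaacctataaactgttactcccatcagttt
Fat1, control alone (chr8:44949958-44950207, plus strand): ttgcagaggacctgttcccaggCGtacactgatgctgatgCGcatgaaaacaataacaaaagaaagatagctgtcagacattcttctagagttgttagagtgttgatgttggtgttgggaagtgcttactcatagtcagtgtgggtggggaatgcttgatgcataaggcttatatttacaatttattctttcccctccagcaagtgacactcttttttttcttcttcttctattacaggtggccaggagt
Tns2, open in both (chr15:102102684-102102933, plus strand): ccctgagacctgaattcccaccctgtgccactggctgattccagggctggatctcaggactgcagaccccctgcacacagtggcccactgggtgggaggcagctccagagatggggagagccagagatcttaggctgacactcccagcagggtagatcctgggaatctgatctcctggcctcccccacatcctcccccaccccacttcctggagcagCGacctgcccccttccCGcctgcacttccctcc

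The open Nos1ap and Nebl starts held 33 and 25 CpG in these bases and the Nos1ap and Nebl starts printed with no peak 5 and 0. The Nup93 pair held 18 and 3, and the Fat1 start 2. The ratio over the whole window was 1.01 and 0.32 for the Nos1ap pair, 0.83 for the open Nebl start and 0.07 to 0.29 for its 3 starts with no peak, 0.85 and 0.25 for Nup93, 0.15 for Fat1 and 0.07 for Tns2, whose window is GC-rich but nearly free of CpG. Plce1 went the other way, with a ratio of 0.64 and no peak over its window. The Fat1 and Nup93 windows with a control peak alone were weakly open: the Fat1 peak was 222 bp wide and in strength class 2.

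Letters of 7 motifs were counted on both strands of the same 300-base windows, as a description. The forkhead motif TGTTTAC was in 1 of 49 windows (2.04%, against 3.01% of the windows of all protein-coding genes), at the Nos1ap start with no peak. The TEAD motif GGAATG was in 9 (18.4% and 13.6%), the AP-1 motif TGANTCA in 3 (6.12% and 6.99%), the E-box CAGCTG in 5 (10.2% and 15.6%), the homeodomain motif TAATTA in 0 (4.53% of all) and the GATA motif GATAAG in 1 (2.04% and 6.92%). The GC-rich letters CNCCCNC, which zinc finger factors such as WT1 can bind, were in 45 (91.8% and 70.3%). The windows were also richer in GC, with a median of 62.0% against 56.3%. None of these motifs contains another.

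Among podocyte-enriched genes with at least 8 control peaks, Nos1ap had the lowest share found. The gene (chromosome 1, 170315467 to 170589849, minus strand) had 16 control and 9 cKO peaks, and 7 of the 16 were found (43.8%, expected 72.7%). The difference was -29.0 points (-53.0 to -2.60), and its interval included 0 with lists of equal length (-54.7 to 0.93) and among the more significant 50% (-62.2 to 11.2). The 5 control peaks farthest from its start, 129 to 196 kb into the gene, all had no cKO counterpart, and neither had 4 others in the gene body. Its 7 found peaks were the start peak, 5 further peaks in the gene and 1 that lay 23.5 kb upstream.

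Dach1, a transcriptional regulator of the podocyte, spans chromosome 14, 97786846 to 98169765, on the minus strand. It had 27 control and 12 cKO peaks, with 12 of the 27 found (44.4%); the expected share was already low at 56.2%, since most of its peaks were weak. None of its 15 unmatched control peaks was in strength class 3 or higher. All 12 cKO peaks were found in the control, the start peak among them.

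Plce1 (chromosome 19, 38481034 to 38785105, plus strand) had 12 control and 8 cKO peaks, with 6 of the 12 found (50.0%, expected 66.7%). Its found peaks clustered at the annotated 5′ end, where the 4 peaks nearest to it were all found, and 2 of its cKO peaks, farther along the gene, had no control counterpart. Nebl (chromosome 2, 17342673 to 17734949, minus strand) had 11 control and 6 cKO peaks, with 6 found (54.5%, expected 75.5%). Its strongest unmatched peak, chr2:17647613-17648505, lay 22.0 kb inside the nearest listed start and was the most significant unmatched control peak of all 42 genes (-log10 p 7.39).

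Myo1e and Daam2 stood at the other end of the class. Myo1e, a class I myosin of the foot process (chromosome 9, 70207350 to 70400067, plus strand), had 17 control and 16 cKO peaks, with 15 of the 17 found (88.2%, expected 72.3%). Daam2, a formin that elongates actin filaments (chromosome 17, 49456022 to 49564459, minus strand), had 13 control and 10 cKO peaks, with 10 found (76.9%, expected 70.1%). Myo1e was nonetheless among the genes with a shorter start peak, so a high share found did not go with an unchanged start peak there. Among the stronger 50% of both lists only 2 of its 9 control peaks had a counterpart, and 2 of 6 for Daam2.

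The other 7 podocyte-enriched genes ranged widely. Arhgap24, a GTPase-activating protein for Rac (chromosome 5, 102207198 to 102905035), had the most peaks of the class, 38 in the control and 25 in the cKO library, and 22 of the 38 were found (57.9%, expected 75.2%). Clic5 (chromosome 17, 44134762 to 44280169) had 11 of 19 found (57.9%, expected 76.6%) and Rhpn1, the GTPase-binding protein rhophilin (chromosome 15, 75704246 to 75714419), 5 of 8 (expected 75.1%). Crb2 (chromosome 2, 37776225 to 37799103) lay near expectation with 16 of 21 (76.2%, expected 77.8%), and all 17 of its cKO peaks were found. Thsd7a, a podocyte surface protein and target of antibodies in membranous nephropathy, had 3 of 5 found. All 5 control peaks of Tns2 and all 3 of Trpc6, a calcium channel, were found, and each had 1 further peak in the cKO library alone.

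By role, the genes of small GTPase signalling and actin assembly had 141 of 216 control peaks found (65.3%, expected 73.0%). The 6 actin crosslinkers, myosins and related actin-binding genes had 59 of 85 found (69.4%, expected 72.6%), and the 9 membrane, polarity and adhesion genes 75 of 114 (65.8%, expected 71.1%). Of the other roles, 15 of 19 were found for the 4 coenzyme Q genes, 13 of these peaks being those of Pdss2, 7 of 11 for the 4 genes of the nuclear pore and export (expected 78.2%), 16 of 32 for Dach1 and Smarcal1 together, and 6 of 6 for Osgep, Sgpl1, Tprkb and Wdr73. These role groups were drawn up after the counts had been seen, and they cut across the 2 expression classes.

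Among broadly expressed genes with at least 8 control peaks, Emp2, a small tetraspan membrane protein, had the lowest share (chromosome 16, 10281749 to 10313968, minus strand), with 8 control and 3 cKO peaks and 3 of the 8 found (37.5%, expected 69.2%). All 3 unmatched peaks inside Emp2 lay within 14.2 kb of its start. Fat1 (chromosome 8, 44933100 to 45052257, plus strand) had 12 control and 8 cKO peaks, with 7 found (58.3%, expected 74.3%). Kank1, which regulates actin at the cell cortex (chromosome 19, 25236732 to 25434498, plus strand), had 31 and 19 peaks, with 19 found (61.3%, expected 70.4%). Inf2, a formin mutated in dominant glomerulosclerosis (chromosome 12, 112588744 to 112615557, plus strand), had 13 and 8 peaks, with 8 found (61.5%, expected 80.6%). In Kank1 and Inf2, as in Fat1 and Emp2, every cKO peak was found in the control.

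Itsn1, a scaffold and activator of Cdc42 (chromosome 16, 91729310 to 91920591, plus strand), had 17 control and 14 cKO peaks, with 14 found (82.4%, expected 69.7%). Pdss2, which makes the side chain of coenzyme Q (chromosome 10, 43218248 to 43464882, plus strand), had 13 and 10 peaks, with 10 found (76.9%, expected 74.1%). The large scaffolds and motors lay between: Dlc1, a GTPase-activating protein, had 33 of 43 found (expected 73.3%), Magi1, a junction scaffold, 21 of 34 (expected 58.5%), Myh9, the heavy chain of non-muscle myosin IIA, 20 of 30 (expected 72.5%), and Actn4, an alpha-actinin that crosslinks actin, 15 of 23 (expected 68.3%).

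The remaining genes had 1 to 11 control peaks each. In Kank4 7 of 11 were found, in Itsn2 4 of 7, in Pla2r1 6 of 7, in Kank2 and in Smarcal1, an annealing helicase, 4 of 5, in Nup93 3 of 5, in Nup205 and Coq2 2 of 3, and in Nup107 1 of 2. Anln, a scaffold of actin and septins, and Wdr73 had all 3 found, Arhgdia and Coq8b both of their 2, and Coq6, Osgep, Sgpl1, Tprkb and the export factor gene Xpo5 their single peak. For the last 5 that single peak lay over the start. Avil, an actin-severing protein of the villin family, had 1 control peak and 2 cKO peaks, none of them matched, and no peak over its start in either library.

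**Figure D4:**
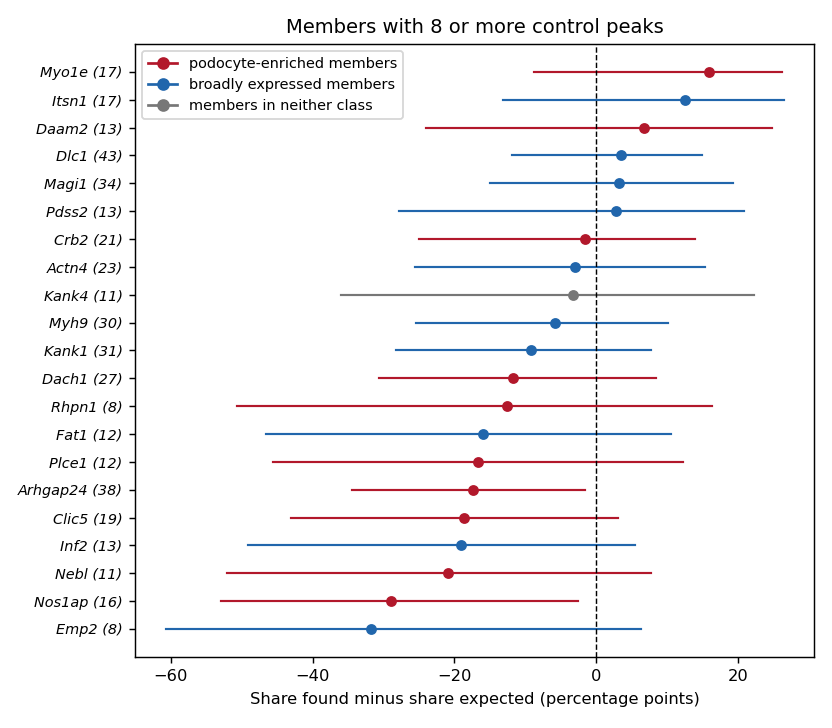
Share of control peaks found minus the share expected, in percentage points, for the 21 genes with at least 8 control peaks, whose number stands in brackets. Points are differences, lines are exact 95% intervals for counting error, and colours are the expression classes; Emp2 and Nos1ap lie furthest to the left and Myo1e and Itsn1 furthest to the right.

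Gene by gene, the 21 genes with at least 8 control peaks had a median difference from the expected share of -9.15 points, and 15 of them lay under 0. Over all 2682 protein-coding genes with as many peaks the median was 0.06 points (quartiles -9.57 and 8.48). The 10 podocyte-enriched genes had a median of -14.6 points, 8 of them under 0, and the 10 broadly expressed genes of -4.45, 6 of them under 0. The values of the classes overlapped, from -29.0 to 15.9 points and from -31.7 to 12.6 points.

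Of the 164 unmatched control peaks, 128 were in the 2 weaker strength classes (78.0%), near the 81.3% of all unmatched control peaks. Inside the gene lay 140 of them (85.4%), as did 79.7% of all control peaks of these genes. Within 1000 bp of any gene end lay 5 of the 164, and 1710 of all 20043 unmatched control peaks. The median distance of the 164 to the nearest cKO peak was 6.10 kb, with 9.76 kb for podocyte-enriched and 3.94 kb for broadly expressed genes. Within 1000 bp of a cKO peak lay 26 of the 164. No such distances are given here for all unmatched control peaks. Strength class 4 held 803 of all 20043 unmatched control peaks and class 5 held 10. Of the 164, 8 were in class 4 and none in class 5. Of these 8, 5 were in podocyte-enriched genes, which held 74 of the 164. After Nebl these were Clic5 at chr17:44216956-44217858 (-log10 p 7.13), Arhgap24 at chr5:102847294-102848362 (7.11) and chr5:102859377-102860242 (6.80), Myh9 at chr15:77804298-77805555 (6.81) and chr15:77791805-77792931 (6.55), Daam2 at chr17:49485225-49486463 (6.45) and Kank1 at chr19:25277236-25278231 (6.30). All 8 lay inside the gene, 22.0 to 57.1 kb from the nearest end of that gene or start window listed for it, and the nearest cKO peak was 0.116 kb away for Kank1, 0.796 kb for the first Arhgap24 peak and 17.1 kb for Clic5. Among control peaks of that strength and position 91.9 to 96.6% were found.

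No control counterpart was called for 15 cKO peaks of these genes. All were in the 2 weaker strength classes, which also held 97.2% of all unmatched cKO peaks. The most significant was in Anln, 19.3 kb from the gene (-log10 p 4.88), followed by one each in Plce1, Arhgap24, Coq2, Nos1ap, a second in Plce1, Myo1e and Dlc1. Avil held 2 of them. Podocyte-enriched genes had 8 of the 15 and broadly expressed genes 5.

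Found peaks were also covered less. The 483 control peaks of the 42 genes spanned 509 kb, and cKO peaks covered 330 kb, or 64.9%, where 76.5% of all control peak bases were covered. Podocyte-enriched genes had 59.5% of 193 kb covered and broadly expressed genes 68.2% of 299 kb. Among the found control peaks alone a mean of 83.4% of each peak was covered, a difference of -5.47 points from the mean for found peaks of the same strength and position, with -6.91 points for podocyte-enriched and -4.59 for broadly expressed genes. In the other direction, cKO peaks found in the control were covered 1.99 points more than expected.

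Lists of related genes also lay under their expected shares. Of 30 other genes of nephrotic syndrome, 154 of 248 control peaks were found (62.1%, -10.7 points from the expected share). Ptpro, a receptor phosphatase of the foot process, with 4 of 13, and the laminin gene Lama5, with 4 of 11, were lowest among those with at least 8 control peaks, and the integrin gene Itga3, with 8 of 8, and the collagen gene Col4a3, with 7 of 9, highest. Of 30 other actin regulators 162 of 246 were found (65.9%, -7.74 points, or -4.23 when both lists had equal length, with an interval that then included 0), from Srgap1 with 15 of 51 and Enah with 4 of 9 to the formin Diaph1 with 9 of 9 and the adhesion protein gene Vcl with 9 of 10. Srgap1 alone held 51 of these 246 peaks and stood -33.9 points from its expected share. The difference of the actin list thus leans heavily on that gene, and the list was not recounted without it. The 12 genes of the slit diaphragm and podocyte surface, 5 of which are also in the nephrotic syndrome list, had 113 of 196 found (57.7%, -14.6 points). They ran from Ptpro and the sialomucin gene Podxl, with 12 of 29, to Fyn, with 26 of 35, and Kirrel3, with 11 of 18. The intervals of all 3 lists overlapped that of the 42 genes (66.0%, 61.6 to 70.3%), and those of the slit diaphragm list ran from 50.4 to 64.7%.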

How the data were processed

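Genes, classes and comparison lists were chosen with earlier results of these data known. ATAC-seq of 1 control and 1 Brg1 cKO library gave 1 peak list each. The tools named are Trim Galore, SAMtools and Genrich, and the build mm10, per the submitters' processing notes. Versions, the aligner, removal of duplicates and shifting of reads were not given in the sources used here. Per peak, the authors' deposited lists hold a score capped at 1000, a signal (the area under the peak, at least 200) and -log10 p and -log10 q. They hold no read counts, so depth is unknown, and a library of lower depth or higher background yields fewer weak peaks. Absence of a call does not show closed chromatin. Values ranked peaks within a list and were not compared between lists; only positions and widths were.

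Coordinates are mm10, 1-based; genes and start windows came from RefSeq GRCm38.p6 (the same coordinates), where all 42 genes were matched. The expected share is the mean, over a list's peaks, of the share found among all peaks of the same position and the same of 10 equal classes of -log10 p. Shares have exact Clopper-Pearson 95% intervals. These count every peak as independent although many peaks share a gene, so they can be too narrow for statements about gene classes. The interval of the difference between classes joins both classes' intervals as the root of their squared arms. Named genes were, per class, the 4 with the lowest and 2 with the highest share found among those with at least 8 control peaks, every gene with a gene-end peak in 1 library only, the 8 most significant unmatched control peaks and up to 8 unmatched cKO peaks; per comparison list, 2 lowest and 2 highest. Other genes, the start-peak widths and the role groups were added after values were seen. Alternatives changed what counts as found, the strength measure and classes, list length, assignment, position and gene classes, and left out each gene in turn; strata by p and area together, strata with gene length, and those for widths were added after seeing the data. With simulated calls for control peaks drawn at random, the method recovered known mean differences from the expected share. Coverage of the intervals, clustering of peaks within genes and the difference between classes were not simulated. Python 3.11.15, pandas 2.3.3, numpy 2.4.6 and scipy 1.17.1 were used. Some marker genes are not reported here.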

Additional observations from a re-analysis of the deposited data

How the results depend on the processing

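With 1 library per genotype no paired analysis was possible because there were no replicates to pair, and depth limits every count, since a less deeply sequenced library yields fewer weak peaks. Values are points from the expected share. The control peaks of the 42 genes, of podocyte-enriched and of broadly expressed genes kept a negative sign over 9 other settings, both other class assignments and both added strata. The podocyte-enriched minus broadly expressed difference ran there from -10.5 to -4.17. Of 77 values of gene lists under alternatives 70 stayed within the limit set for them. For shares the limit was the counting interval of the main setting, and for counts and covered bases it was a fixed fold of the main value. Those that moved were 4 under the more significant 50% of each list (42 genes -13.8, podocyte-enriched -18.6, broadly expressed -10.7, and cKO peaks of the 42 genes -1.98), cKO peaks found with overlap of at least 50% of both peaks (-2.32), cKO peaks found when both lists had equal length (5.90), and the count of podocyte-enriched genes with a shorter start peak, 3 of 7 when Myo1e, Nos1ap and Tns2 were counted as broadly expressed (then 2 of 26). The cause of these was not tested. The sign of the cKO value thus changed with the setting. The interval of the broadly expressed genes excluded 0 with 50% overlap (-6.72), with strength classes by area (-6.00) and among the more significant 50%. Leaving out each gene in turn gave -7.14 to -5.25 for the 42 genes, -12.4 (without Myo1e) to -8.14 (without Arhgap24) for podocyte-enriched, -5.17 (without Dlc1) to -2.94 (without Emp2) for broadly expressed genes, -8.61 to -4.35 for their difference and 2.23 to 3.20 for cKO peaks. Of single genes, Dach1 (-46.8), Myo1e (-33.1), Daam2 (-36.9) and Itsn1 (-13.4) moved, all under the more significant 50%.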
